A study of Apostichopus japonicus with 12 samples.

Results

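In Apostichopus japonicus, a sea cucumber, 117 of 59494 transcript features of the respiratory tree were higher in every library under combined heat and low oxygen than in any other library, while their group means under either stress alone were held close to the control mean. Single thermal or hypoxic libraries could lie further from it, and thermal replicate 2 did for many of the features. They were chosen from measured values. FPKM (fragments scaled to the length of the feature and the size of the library) was taken as y = log2(FPKM + 0.5). The lowest of the 3 combined values had to exceed the highest of the other 9, and the combined mean of y had to lie at least 1.5 above the control mean. The thermal and hypoxic means of y each had to stay within 1 of the control mean, and the combined group had to average at least 2 FPKM. All levels and differences against the combined group below therefore describe the choice and carry no test.

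The 12 libraries of ribosome-depleted total RNA formed 4 treatment groups of 3: normal control (NC), thermal stress at 26 °C (HT), hypoxic stress at 2 mg/L dissolved oxygen (LO), and both stresses together (HL). The sources used here give no temperature or oxygen level for the control group, no oxygen level for the thermal group and no temperature for the hypoxic group. Age, strain and length of exposure are not given in the labels, and nothing there says that replicates were separate animals, so spreads measure these libraries only. The recovered library totals ran from 20387909 to 28428042 reads. The features carry AJAP or MSTRG identifiers, of which 0 matched the reference gene table used here. No gene name or function is therefore given to any of them, and the labelled tissue could not be checked against marker genes.

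The respiratory tree is a pair of branched, thin-walled tubes opening into the cloaca, through which the animal pumps sea water to take up oxygen. Warm water holds less dissolved oxygen and raises the oxygen demand of an animal that takes its temperature from the water, so the stresses often meet in summer in shallow habitats. In many animals heat is answered by induction of chaperones and low oxygen by the hypoxia-inducible factor pathway. Apostichopus japonicus also lowers its activity and feeding in warm water, a state known as aestivation.

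Together the 117 features took 0.426%, 0.392% and 0.438% of the reads in combined replicates 1, 2 and 3. They took 0.0917%, 0.0846% and 0.0825% in the control libraries and 0.112%, 0.0934% and 0.107% in the hypoxic libraries. The thermal libraries were uneven, at 0.0794% and 0.0708% in replicates 1 and 3 but 0.198% in replicate 2. The median feature stood at 9.08 FPKM under combined stress, and at 1.32, 1.98 and 2.04 FPKM in the control, thermal and hypoxic groups. In bulk tissue, more RNA per cell and more cells that hold the RNA cannot be told apart.

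**Figure D1:**
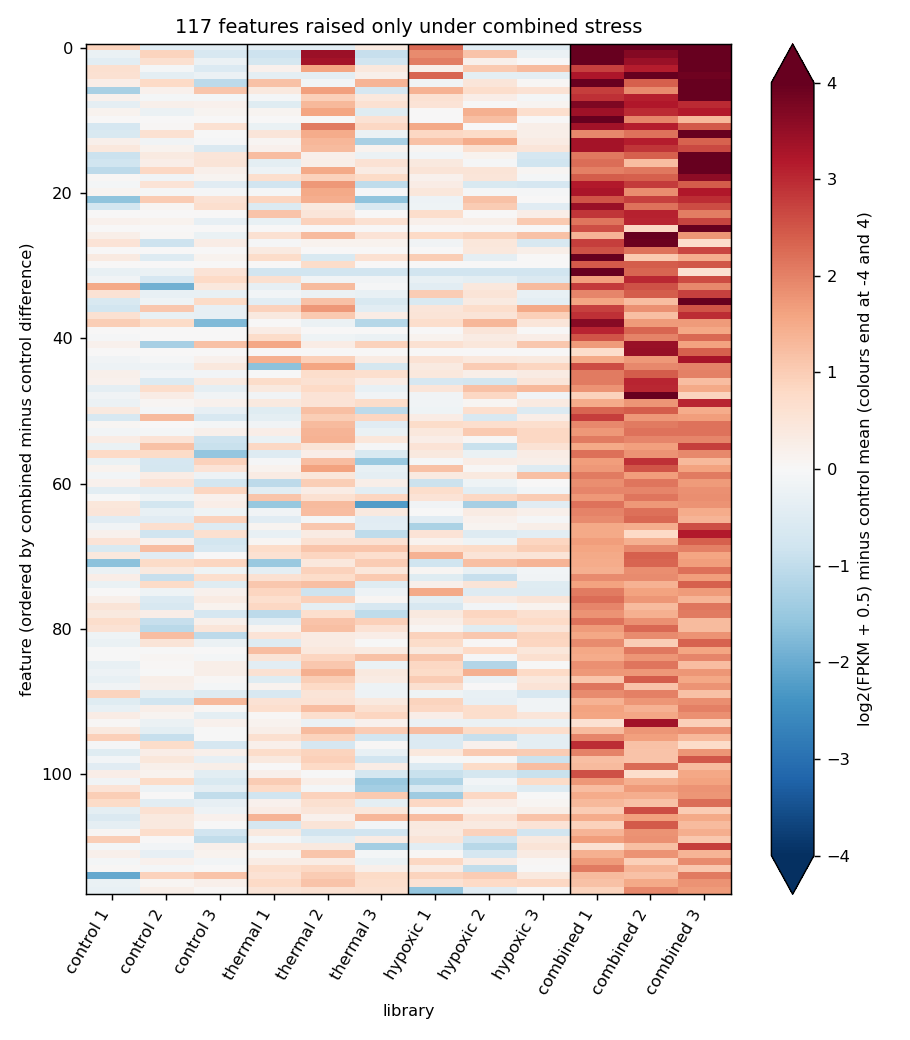
Each row is 1 of the 117 features and each column 1 of the 12 libraries. Colour gives log2(FPKM + 0.5) minus the control mean, and rows run from the largest combined difference (5.72) to the smallest (1.501). The 3 combined columns are red throughout, as the rule requires, and the column of thermal replicate 2 is redder than those of the other thermal libraries.

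The combined minus control difference had a median of 1.94 on the log2 scale, against -0.02 over the 46763 features tested. It was below 2 for 63 features, from 2 up to 3 for 43, and 3 or more for 11. AJAP18945 showed the largest difference. It stood at 28.4, 95.4 and 15.8 FPKM in the combined libraries. The control libraries held 0.742, 0 and 0 FPKM, the thermal ones 0, 0 and 0.373 FPKM, and the hypoxic ones 2.79, 0 and 0 FPKM. A feature with hardly any reads in 8 of the other libraries was thus plentiful in each combined one, with a 6-fold spread among them. Scaled for depth, the combined libraries held 188 times the control reads, and counting error alone gave an exact 95% interval of 95.4 to 437. Its log2 difference was 5.72.

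AJAP08511 had a like profile, at 5.64, 16.0 and 9.23 FPKM under combined stress. Of the other 9 libraries only hypoxic replicate 1 (2.76 FPKM), control replicate 1 (0.506), thermal replicate 3 (0.254) and control replicate 3 (0.06) held any of it. AJAP18945 was listed above 0 in the first 3 of these as well. The deviations of the pair from their group means correlated at r = 0.897 over 12 libraries, which share library and depth. With 9 control reads against 481 combined reads, the depth-scaled ratio of AJAP08511 was 54.1 (exact 95% interval 28.3 to 119).

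MSTRG.123793 and MSTRG.15872 followed AJAP18945 in the size of the difference, and both are long features, of 6362 and 4819 bases. MSTRG.123793 stood at 52.3, 23.7 and 52.7 FPKM in the combined libraries. Its control values were 1.07, 2.99 and 0.703 FPKM. In the thermal group it was at 0.564, 19.6 and 0.480 FPKM, and in the hypoxic group at 6.51, 3.63 and 1.09 FPKM. Thermal replicate 2 thus lay close to the lowest combined library, while thermal replicates 1 and 3 lay below every control library. MSTRG.15872 repeated this, with 36.4, 18.4 and 42.3 FPKM under combined stress and 0.569, 16.9 and 0.520 FPKM in the thermal libraries. The within-group deviations of these 2 features correlated at r = 0.964. Whether they share sequence, and so reads, is not known from the files.

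Among the other features with the 10 largest differences, MSTRG.105174 was the most even. It stood at 40.8, 30.3 and 35.2 FPKM in the combined group. Its control values of 3.79, 2.80 and 3.76 FPKM were close together, and the difference was 3.18. Its highest value elsewhere was 11.3 FPKM in thermal replicate 2, followed by 10.1 FPKM in hypoxic replicate 2.

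MSTRG.97315 was at 12.1, 8.12 and 7.04 FPKM under combined stress, and its control values were 0.234, 0.590 and 0.555 FPKM. AJAP30268 was at 3.53, 4.06 and 8.34 FPKM against 2 control reads in all, a depth-scaled ratio of 148 with an exact 95% interval of 40.7 to 1231. MSTRG.66032 was at 30.5, 5.83 and 22.9 FPKM, and reached 2.62 FPKM in thermal replicate 3, its highest level elsewhere. In each of these 3 features the combined and the other libraries were separated by at least a log2 gap of 1.02.

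The most abundant features told the thermal libraries apart again. AJAP25183 stood at 238, 177 and 184 FPKM in the combined libraries, the highest mean of all members (199.7 ± 33.5 FPKM, SD, n = 3). It was also the member most abundant in control tissue, at 72.9, 31.3 and 64.0 FPKM. Its hypoxic values were 47.6, 20.7 and 38.2 FPKM, and its thermal values 18.2, 128 and 10.9 FPKM. So heat alone gave both the lowest values and the highest value outside the combined group. The group means hid this: the thermal minus control difference was -0.82 and the hypoxic one -0.64, while the combined one was 1.90.

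AJAP27391 stood at 219, 170.1 and 129 FPKM under combined stress. Control values were 22.3, 35.3 and 17.1 FPKM. Thermal replicates 1, 2 and 3 held 13.8, 80.7 and 11.4 FPKM. Hypoxic values, at 29.7, 15.5 and 14.7 FPKM, overlapped the control values. The combined mean was 6.93 times the control mean.

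AJAP25829 and AJAP00001 stood higher in every hypoxic library than in any control library. AJAP25829 held 133, 149.6 and 157 FPKM in the combined group. It held 58.2, 55.9 and 55.8 FPKM in the hypoxic group, above all control values of 36.4, 35.3 and 32.9 FPKM. Its thermal values were 31.7, 83.9 and 25.1 FPKM. AJAP00001 showed the same order of control, hypoxic and combined values. Its combined values were 111, 149.5 and 151 FPKM and its hypoxic values 44.3, 68.6 and 59.2 FPKM. Control libraries held 30.6, 30.9 and 37.6 FPKM of it. The thermal minus control differences were 0.22 for AJAP25829 and 0.45 for AJAP00001. The hypoxic differences, 0.69 and 0.77, kept both features inside the bound of 1.

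AJAP16259 stood apart from these in its thermal values. They were even, at 59.5, 65.4 and 80.4 FPKM, and in part above the control values of 46.8, 20.2 and 61.5 FPKM. Its hypoxic values were 27.3, 20.4 and 35.1 FPKM, and its combined values 145, 144 and 123 FPKM. AJAP25536 was even in the hypoxic group instead, at 45.1, 63.2 and 54.7 FPKM, against 121, 92.9 and 148 FPKM under combined stress. Its thermal values were 16.5, 55.2 and 16.9 FPKM, with replicate 2 again the high one.

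A further 26 members had a combined mean of 20 to 100 FPKM, and those described here were picked after their values were seen. AJAP13625 was among the more even, at 73.5, 56.0 and 73.2 FPKM under combined stress against 15.8, 21.2 and 14.9 FPKM in the control group. Its thermal values of 21.7, 23.4 and 13.1 FPKM lay around the control values, and its highest level elsewhere was 39.9 FPKM in hypoxic replicate 3. AJAP02302 held 126, 62.2 and 98.2 FPKM in the combined libraries and 25.2, 32.5 and 26.6 FPKM in the control ones, with 49.2 FPKM in thermal replicate 2.

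MSTRG.28537 was graded in the single stresses. Its control values were 8.73, 7.72 and 9.91 FPKM, and all thermal values (19.3, 13.7 and 16.1 FPKM) and all hypoxic values (12.9, 16.1 and 18.2 FPKM) lay above them. The combined values, 29.9, 40.4 and 32.9 FPKM, lay higher still. MSTRG.142785 had hypoxic values of 33.5, 37.2 and 32.3 FPKM against combined values of 51.2, 65.5 and 61.7 FPKM. Its control values were too uneven to place it, at 15.2, 41.1 and 8.15 FPKM. AJAP17023 showed no such step, with hypoxic values of 4.41, 7.53 and 8.53 FPKM at or below most control values of 9.74, 12.8 and 4.86 FPKM, and combined values of 32.5, 39.4 and 29.1 FPKM.

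**Figure D2:**
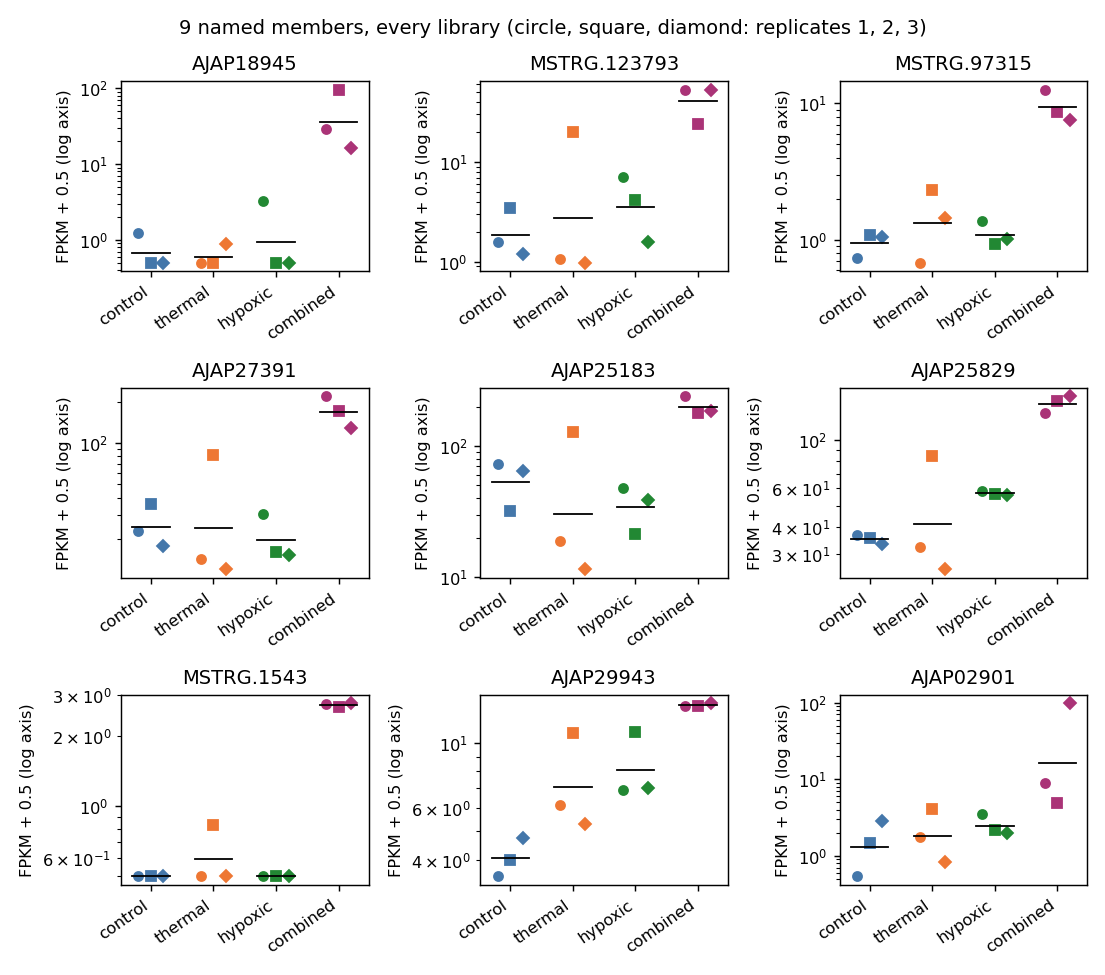
FPKM + 0.5 on a log axis for 9 named features in the 4 groups. Points are libraries, with a circle, square and diamond for replicates 1, 2 and 3, and the bar is the mean on the log scale. The 9 were picked from the features named by rule, with no further rule. The thermal square (replicate 2) lies above the other thermal points in 8 of the 9 panels, the exception being AJAP18945. Over all 117 members this held for 72 (61.5%), and features with another thermal pattern, such as AJAP17503, are not shown.

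Some members were close to absent outside the combined group. Control libraries held 0 reads of 7 members, and 2 of these, MSTRG.50108 and MSTRG.5892, were listed at 0 in all 9 other libraries. MSTRG.50108 stood at 2.49, 0.397 and 9.03 FPKM and MSTRG.5892 at 0.315, 5.11 and 2.13 FPKM in the combined group. Both are short, 229 and 151 bases by the recovered lengths, and their reads are less certain because only 3 libraries hold any. They were named after their values were seen.

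MSTRG.1543 was the steadiest of the features near absence. It held 2.26, 2.16 and 2.27 FPKM under combined stress and 0.332 FPKM in thermal replicate 2, and had 0 reads in the remaining 8 libraries. Against a floor of 3 reads over the control group its level was at least 53.4-fold higher. MSTRG.29334 stood at 2.41, 1.74 and 2.72 FPKM, at least 48.3-fold above the same floor, with at most 0.173 FPKM in any other library. MSTRG.18860 was at least 44.6-fold higher, but rested mostly on combined replicate 1, with 30.9 FPKM against 1.44 and 0.730 FPKM in the other two.

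The SD of y among the 3 combined libraries had a median of 0.50 over the members and 0.51 over all features tested. The rule used these same values, and the members stood higher (median combined mean of 9.08 against 2.67 FPKM). Nothing is therefore read from the likeness of the 2 SDs. In 56 members the highest combined value was under 2 times the lowest. The 5 smallest SDs belonged to AJAP29943, MSTRG.1543, MSTRG.137150, AJAP17503 and AJAP19200. AJAP29943 stood at 12.9, 12.8 and 13.2 FPKM, against 3.01, 3.50 and 4.25 FPKM in the control group. Its thermal values were 5.65, 10.3 and 4.79 FPKM and its hypoxic values 6.43, 10.4 and 6.52 FPKM, all above the control values. AJAP19200 was at 50.5, 45.4 and 45.5 FPKM, with 30.6 FPKM in thermal replicate 2 and control values of 14.1, 16.9 and 6.26 FPKM. AJAP17503 held 6.68, 7.37 and 6.80 FPKM, with 6.01 and 5.97 FPKM in thermal replicates 1 and 3 and 2.35 FPKM in replicate 2, the reverse of the usual thermal pattern. MSTRG.137150, at 2.07, 2.10 and 1.88 FPKM, rested on 48 combined reads in all.

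In 22 members 1 combined library stood at least 3 times above the next, a count that was not made over all features. That library was replicate 3 for 11 of them, replicate 2 for 6 and replicate 1 for 5. AJAP02901 was at 8.42, 4.39 and 97.5 FPKM, and AJAP26571 at 3.58, 1.53 and 35.1 FPKM. MSTRG.99110, at 6.99, 9.43 and 74.7 FPKM, AJAP17151, at 4.70, 5.13 and 32.5 FPKM, and AJAP30344, at 2.65, 3.22 and 22.8 FPKM, were high in the same library. The deviations of AJAP17151 and AJAP30344 correlated at r = 0.926 over 12 libraries. Replicate 2 was the high one for AJAP00701, at 22.6, 191 and 30.0 FPKM, and for MSTRG.43280, at 0.557, 11.9 and 0.539 FPKM. MSTRG.82365 was high in replicate 1, at 72.8, 4.76 and 6.39 FPKM. The features AJAP17151, AJAP30344, AJAP00701, MSTRG.43280 and MSTRG.82365 were named after their values were seen. For such features the mean describes 1 library more than the group.

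The level of thermal replicate 2 was the main departure from "combined only". The rule limits the thermal mean and the highest thermal value, but not which thermal library is high. Thermal replicate 2 was the highest of its group for 72 of the 117 members (61.5%), against 31.5% of all features tested. It was the highest of all 9 libraries outside the combined group for 45 members (38.5%), against 11.3% of all features tested. No other library held that place for more than 12 members. Among the 32 members with a combined mean of at least 20 FPKM it did so for 21. That count was not made over all features of this level, so no link to abundance is read from it.

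Set against the mean of thermal replicates 1 and 3, replicate 2 differed by a median of 0.66 on the log2 scale over the members and of -0.04 over all features tested. It was more than 1 above them for 33 members (28.2%, against 11.4% of all features tested) and more than 1 below them for 4. Under median-of-ratios and quantile scaling the median was 0.69 and 0.66. The largest such gaps were 4.30 for MSTRG.123793, 4.06 for MSTRG.15872, 3.13 for AJAP25183 and 2.73 for AJAP19582. AJAP19582, named here after its values were seen, held 0.0764, 4.78 and 0.594 FPKM in the thermal group and 10.4, 6.31 and 6.54 FPKM in the combined group.

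**Figure D3:**
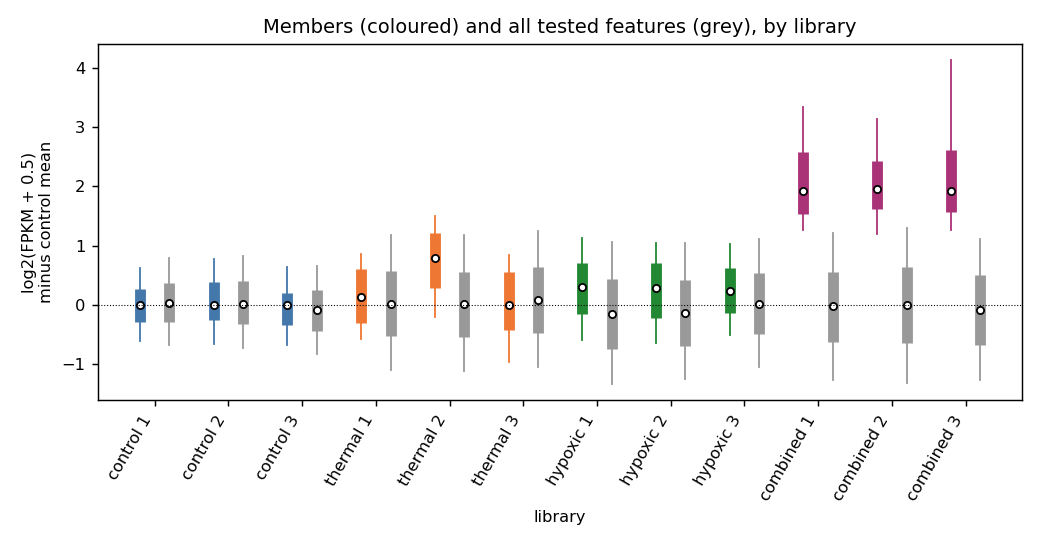
For each library, the difference of log2(FPKM + 0.5) from the control mean, over the 117 members (coloured by group) and over all features tested (grey). Circles are medians, thick bars run from the lower to the upper quartile and thin lines from the 10th to the 90th percentile. Member medians lie between 1.92 and 1.96 in the combined libraries, at 0.80 in thermal replicate 2, and between 0 and 0.31 in the rest.

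**Figure D4:**
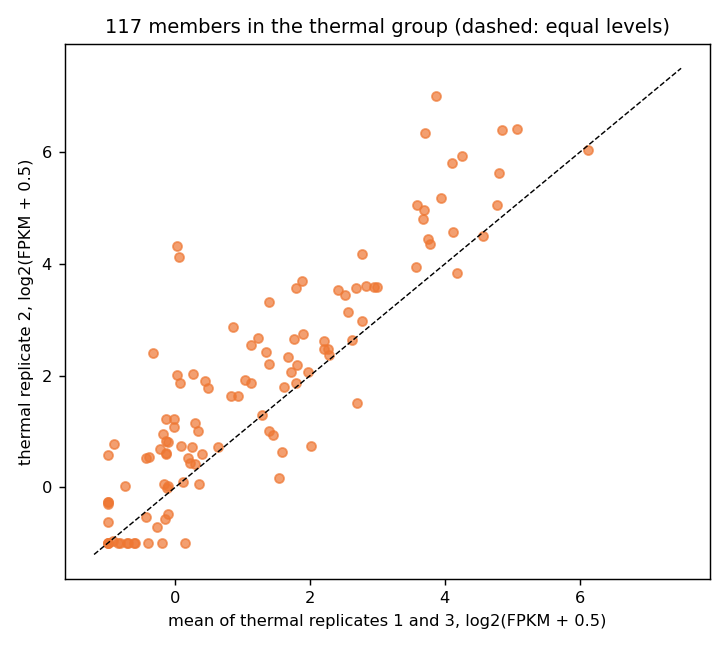
Each point is 1 of the 117 members, with its level in thermal replicate 2 on the vertical axis and the mean of thermal replicates 1 and 3 on the horizontal axis, both as log2(FPKM + 0.5). The dashed line marks equal levels. Most points lie above it, with a median distance of 0.66.

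Without thermal replicate 2 the thermal minus control difference over the members had a median of 0.10, against 0.34 with it. The number of members with a difference above 0 was 68 without it and 86 with it. Of the 46763 features tested, it was above 0 for 25169 and 25265. Applied without that library, the rule found 176 features, 111 of them among the 117. In the mirrored list, the 133 features low only under combined stress, thermal replicate 2 was the lowest of the 9 other libraries for 41 features (30.8%), against 8.00% of all features tested. There its difference from the mean of thermal replicates 1 and 3 had a median of -0.42. Its recovered total, 24778845 reads, lay within the range of the other libraries. Why this library differed was not tested, and the labels give nothing that sets it apart.

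The single stresses left small differences of either sign. The thermal difference ran from -0.82 to 0.98 and the hypoxic one from -0.82 to 1.00, within the rule's bound. The hypoxic difference had a median of 0.23 and was above 0 for 82 members (70.1%, against 45.2% of all features tested). Both differences were above 0 for 66 members and both below 0 for 13. For 19 members the thermal one was above 0 and the hypoxic one below, and for 16 the reverse. Of the other 3, MSTRG.1543 had a thermal difference of 0.24 and a hypoxic one of 0, and 2 members with 0 reads outside the combined group had 0 for both. Both differences use the same control libraries, and the rule picked features with low control values, so their signs are not independent. The joint counts were not made over all features tested, so nothing is read from them. Over all features tested the medians were 0.06 for heat and -0.08 for low oxygen.

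How far the combined difference went beyond the sum of the 2 single differences was computed for each member. The bounds of the rule push this excess upward. Its median was 1.72, with quartiles of 1.09 and 2.18, against a median of -0.01 over all features tested. An excess above 1 was found for 95 members, and for 5699 of the 46763 features tested. Without thermal replicate 2 the median was 1.88. The largest excess was 5.42, for AJAP18945. MSTRG.123237, named after its values were seen, came next with 3.99. It held 0 reads in the 6 thermal and hypoxic libraries, 0.201, 0.217 and 0.762 FPKM in the control libraries and 17.0, 3.82 and 0.814 FPKM in the combined libraries. AJAP25183, described above, had an excess of 3.36.

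At the other end, 5 members did not exceed the sum. AJAP17503 had a combined difference of 1.54, a thermal one of 0.95 and a hypoxic one of 0.98, an excess of -0.38. AJAP24831 (-0.12), MSTRG.81317 (-0.11), AJAP29943 (-0.07) and AJAP22661 (-0.04) were the others. For these 5, of which MSTRG.81317 and AJAP22661 were named after their values were seen, the combined difference was thus at or slightly below the sum of 2 modest single differences. limma's test of this excess called 0 members and 0 of all features tested (background 0%) at an adjusted p of 0.05. At an unadjusted p under 0.05, 57 of the 114 members tested were higher, against 3.45% of all features, and voom on the recovered reads also called 0. The rule used these same values, so nothing is read from the counts.

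**Figure D5:**
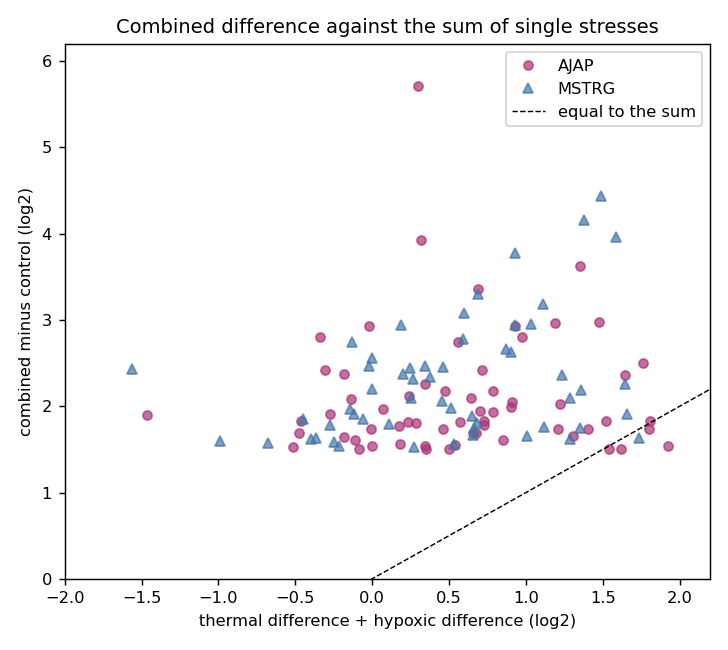
For each of the 117 members, the combined minus control difference (vertical axis, log2) against the sum of the thermal and hypoxic differences (horizontal axis, log2), with AJAP features as circles and MSTRG features as triangles. The dashed line marks equality. All but 5 points lie above it, and AJAP18945 lies farthest above, by 5.42.

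Of the members, 62 (53.0%) carried AJAP identifiers and 55 (47.0%) MSTRG identifiers. Among all 26550 features with a combined mean of at least 2 FPKM the shares were 62.6% and 37.4%. AJAP members were the more abundant, with a median combined mean of 13.0 FPKM against 5.79 FPKM, and had the smaller median difference, 1.83 against 2.10. The classes differed the same way among all features with a combined mean of at least 2 FPKM. There the medians were 10.9 against 4.80 FPKM, and 0.06 against 0.22 for the difference. All 6 members with a combined mean of at least 100 FPKM were AJAP features. The median length was 1081.5 bases for AJAP and 834 bases for MSTRG members, against 993 and 1267 bases among the features with a combined mean of at least 2 FPKM. MSTRG members were thus shorter than MSTRG features of that level, which was not tested. No 2 members carried consecutive identifier numbers.

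Over the 6786 pairs of members, the deviations from group means across the 12 libraries had a median correlation of 0.08. Pairs of other features were not computed, so whether this is low for the table was not tested. Thermal replicate 2 was a shared departure, the highest of its group for 61.5% of members against 31.5% of all features tested. A correlation of 0.9 was reached by 13 pairs. Among them were MSTRG.1543 with AJAP25829 (0.966), MSTRG.123793 with MSTRG.15872 (0.964), both of these with AJAP27391 (0.923 and 0.921), and MSTRG.846 with AJAP07405 (0.941). Outside the combined group MSTRG.1543 held reads in thermal replicate 2 alone, 9 of them, and without that library its correlation with AJAP25829 was -0.08. The pair of MSTRG.123793 and MSTRG.15872 stood at 0.865 without it, and those of both with AJAP27391 at 0.699 and 0.684. MSTRG.846 with AJAP07405 stood at 0.935. Without thermal replicate 2, 16 pairs reached 0.9, of which 5 were among the 13. MSTRG.846 and AJAP07405 were named after their values were seen.

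The rule drew sharp lines through a continuous range. AJAP27321 (1.501) and AJAP24831 (1.502) lay just inside the minimum difference, and AJAP15270 (1.499) and AJAP04071 (1.489) just outside. In all, 259 features failed only that minimum. The demand that combined values clear all others was the tightest, with 328 features failing it alone. AJAP08234 passed it by the least, its lowest combined value being 60.89 FPKM and thermal replicate 2 standing at 60.87 FPKM. MSTRG.2003, with combined values of 13.3, 0 and 0 FPKM and 0 elsewhere, was just outside. The bound on the single stresses alone removed 80 features. AJAP29943 (0.998) was just inside and MSTRG.104082 (1.007), which stood at 263, 176 and 187 FPKM under combined stress, just outside. The minimum level alone removed 16, with MSTRG.137150 (2.02 FPKM) just inside and MSTRG.125945 (1.997 FPKM) just outside. AJAP08234, MSTRG.2003, MSTRG.104082 and MSTRG.125945 were named after their values were seen.

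The same rule with the thermal group in the place of the combined group found 74 features, and with the hypoxic group 92. The mirrored rule found the 133 features low only under combined stress. These are counts of the table as it stands, with no test of their difference. Without combined replicate 1, 2 or 3 the rule found 289, 243 and 343 features, because fewer values then had to clear the rest, and 104, 101 and 99 of the 117 members were among them.

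Of the 117 members, 114 passed the filter for testing (at least 0.5 FPKM in at least 3 libraries), and MSTRG.50108, MSTRG.5892 and AJAP09797 did not. Against the control group, limma called 50 of the 114 higher at an adjusted p of 0.05, where 0.898% of all features tested were called higher. Since the rule used this contrast, nothing is read from that count. It was 18, 18 and 16 without control replicates 1, 2 and 3 (background 0.269%, 0.31% and 0.274%). It was 21, 14 and 23 without combined replicates 1, 2 and 3 (background 0.383%, 0.158% and 0.398%). With voom on the recovered reads it was 26 (background 0.404%), and in a fit of only the 2 groups 13 (background 0.22%). The calls over all features thus fell in these settings as well.

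Against the thermal group limma called 0 members, as it called 0 features in all (background 0%). At an unadjusted p under 0.05, 106 of the 114 were higher, where 3.42% of all features tested were. The rule put every combined value above every thermal one, so nothing is read from the 106. Voom called 0. Without thermal replicate 2, 15 members were called higher among 57 features of the table. Against the hypoxic group limma called 2 members higher (background 0.0214%), AJAP30268 and MSTRG.1543, both with an adjusted p of 0.0458 close to the threshold. Their log2 differences there were 3.09 (SE 0.45) and 2.45 (SE 0.36), with all 3 combined libraries above all 3 hypoxic ones, as the rule required of every member. That count was 8 without thermal replicate 2 (background 0.0577%). It was 1 without control replicate 2 (0.0107%) or hypoxic replicate 1 (0.00642%), and 0 without any other library. In the thermal and hypoxic groups against control limma called 0 members (background 0.0107% and 0.265% higher), with 7 and 9 higher at an unadjusted p under 0.05 (background 5.85% and 6.24%). The rule had limited both differences.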

How the data were processed

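The deposited table holds FPKM values made by the authors, in a separate column for every library. The submitters' processing notes name TopHat2 2.0.12, Bowtie2 2.2.3, DESeq 1.16 and Cufflinks without saying what each did. For the counting step, annotation and genome build: not given in the sources used here. Per the labels' protocols the kit keeps strand. Whether counting used it is not stated, so antisense partners and near-identical copies may not be resolved. Columns were matched by title, and groups came from the treatment labels.

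Members were found by the stated rule. The members, the rule and the alternatives were chosen with earlier results of these data known. Whole reads, lengths and totals were recovered from the FPKM values, and all 59494 features gave whole reads at a tolerance of 0.001 reads. A check used 1000 features with reads in 4 or more libraries. Of these, 100% gave whole reads with the recovered totals and 0% with wrong totals. Reads of features present in under 4 libraries are less certain. Intervals (exact, 95%) and the floor of 3 reads over a group cover counting error only. limma 3.58.1 (R 4.3.3) was fitted to log2(FPKM + 0.5) of 46763 features (3 or more libraries at 0.5 FPKM or above), with a mean per group, a variance trend and Benjamini-Hochberg adjustment over all features tested. The pseudocount understates differences of low features. The fit and the read recovery were tested on simulated data. Descriptions and figures used Python 3.11.15, numpy 2.4.6, pandas 2.3.3 and matplotlib 3.10.9.

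Features were named by rule: the 10 largest combined minus control differences, the 6 highest combined means, the 5 smallest and 3 largest SDs in the combined group, the 5 widest gaps to the other libraries, the 3 highest control means, and 2 on each side of the minimum difference. Others are marked where they appear.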

Additional observations from a re-analysis of the deposited data

How the results depend on the processing

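The rule found 117 features. It found 237 with a minimum difference of 1, 54 with a minimum of 2, 60 with the single stresses bounded at 0.5 and 197 with no bound. Other pseudocounts, scalings and level minimums gave between 82 and 133. The membership changed more than these counts show. Of the 117 members, 28 were lost with a pseudocount of 0.1 and 34 with a pseudocount of 1. Median-of-ratios and quantile scaling each lost 19. Leaving out each library in turn gave between 116 and 343. Without control replicates 1, 2 and 3, 20, 28 and 27 members were lost, and without any other library between 3 and 18. Counts of members called higher by limma were 50 against control, 0 against thermal, 2 against hypoxic and 0 for the excess over the sum. Against control the count was 26 with voom on the recovered reads (background 0.404%) and 13 in a fit of the 2 groups only (0.22%). It was between 14 and 55 without 1 library, where the background ran from 0.158% to 1.04%. Against thermal it was between 0 and 15 without 1 library, the 15 without thermal replicate 2 (background 0.122%), and 0 under every other setting. Against hypoxic it was 5 with a pseudocount of 1 (background 0.0235%) and 1 with no filter (0.00336%). It was 0 under each of the other settings tried, and between 0 and 8 without 1 library, the 8 without thermal replicate 2 (background 0.0577%). For the excess it was 0 in every fit run. With the replicate number as a block the counts were 33 against control and 0 in the other 3 comparisons. Same-numbered libraries did not deviate together (correlations of deviations from -0.08 to 0.09), so the numbers are not taken to pair samples. For the 26 members named by rule, 16 of the 260 recomputed combined minus control differences moved by more than the spread between replicates. These moves came from the pseudocount, apart from those of MSTRG.1543 under both scalings, and not from leaving out a library. With pseudocounts of 0.1 and 1, AJAP30268 went from 3.35 to 5.30 and 2.53, and MSTRG.1543 from 2.45 to 4.54 and 1.69. The sign of the recomputed differences was largely fixed by the choice of members and is no sign of stability. Leaving out thermal replicate 2 for the correlated pairs was chosen after seeing the data. Low features limit precision: MSTRG.137150, at 2.02 FPKM under combined stress, rested on 48 combined reads.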
